A study of Rattus norvegicus with 22 samples.

Results

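The orexin receptors were represented by 2 probe sets of the 1050 in the deposited table, AF041244_at for Hcrtr1 (OX1R) and AF041246_at for Hcrtr2 (OX2R), which are all the probe sets whose platform gene symbol is 1 of these genes. The table named 643 genes. Both genes were picked out because they had been found to differ between dCINs and MNs on these same arrays, so their signals in dCINs and MNs are described below without a test. The study also measured Hcrtr2, but not Hcrtr1, by real time RT-PCR on other animals. It reported good agreement with its array ratio. The arrays carried amplified RNA of laser microdissected cells from the ventral horn of the lumbar spinal cord of neonatal Wistar rats, each from another animal, and no animal was treated or mutated. The 7 dCIN arrays (labelled CIN) held commissural interneurons that project down the opposite side of the cord, and the 7 MN arrays held motor neurons, both filled with a rhodamine tracer through their cut axons. The 8 MIX arrays held cells cut at random from the ventral horn, which were the control of the study. A sample pooled 50 to 100 cells for dCINs, 55 to 250 for MNs and 95 to 187 for MIX, as approximate counts in the labels. Signals are Li-Wong summaries on a linear scale, which run from 1 to 8642 over the whole table. A pool with fewer cells carrying a transcript cannot be told apart from a pool with less transcript per cell.

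Orexins are a pair of neuropeptides cut from a single precursor, and they are made by neurons of the lateral hypothalamus that send axons through the brain and down the spinal cord. They act on the G protein coupled receptors OX1R and OX2R, which couple mainly to Gq, raise intracellular calcium through phospholipase C and depolarise most neurons that carry them. The system is best known for keeping the animal awake. The loss of OX2R in dogs and of the peptide in humans goes with narcolepsy.

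Hcrtr1 lies on rat chromosome 5 from 147761392 to 147771846 and Hcrtr2 on chromosome 8 from 85870279 to 85986405 (GRCr8), so the receptors are products of separate loci. Their start regions are shown because both genes had a higher signal in the same cells. Each window runs from 250 bases before to 50 bases after a RefSeq transcript start of build GRCr8, and capitals mark the letters TGACG, the core of a cAMP response element, on either strand.
Hcrtr1, chr5:147770801-147771100, minus strand: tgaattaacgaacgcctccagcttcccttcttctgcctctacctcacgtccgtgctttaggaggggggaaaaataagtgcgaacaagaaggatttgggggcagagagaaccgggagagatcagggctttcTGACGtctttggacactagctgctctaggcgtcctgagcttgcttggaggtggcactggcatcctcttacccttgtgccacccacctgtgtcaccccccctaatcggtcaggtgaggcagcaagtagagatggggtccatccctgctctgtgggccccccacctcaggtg
Hcrtr2, chr8:85986356-85986655, minus strand: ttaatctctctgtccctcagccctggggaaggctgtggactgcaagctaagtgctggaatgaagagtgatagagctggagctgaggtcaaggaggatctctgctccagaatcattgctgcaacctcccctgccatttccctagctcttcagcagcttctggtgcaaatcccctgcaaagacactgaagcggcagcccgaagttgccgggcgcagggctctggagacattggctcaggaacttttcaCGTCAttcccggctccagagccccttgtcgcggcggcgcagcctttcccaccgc
The window of Hcrtr1 belongs to a transcript that starts inside the annotated span of the gene. The core was found 1 time in each window, at 120 bases before the start for Hcrtr1 and, on the other strand, at 4 bases before the start for Hcrtr2. It was present in 21.2% of 33469 rat promoter windows of the same length. The full element TGACGTCA (1.83% of windows), the GC box GGGCGG (33.1%) and the TATA box TATAAA (14.2%) were in neither window on either strand. The E-box CANNTG, found in 72.1% of all windows, occurred 3 times in the window of Hcrtr1 and not in that of Hcrtr2. The reverse held for CCAAT (37.5% of windows), which Hcrtr2 had 1 time. Both windows were somewhat rich in G and C, with 57.0% for Hcrtr1 and 58.0% for Hcrtr2 against a median of 51.7% over all windows. These matches are letters only and no binding was measured.

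Hcrtr1 had a signal of 96.0 at the lowest, 218 at the median and 279 at the highest dCIN array, against 49.6, 78.5 and 105 on the MN arrays. The groups overlapped through a single dCIN array, number 1 at 96.0, which lay below MN array 3 at 105. The other 6 dCIN arrays, from 159 upwards, stood above all MN arrays. On average the signal was 204 ± 63.9 over dCIN arrays and 78.5 ± 19.0 over MN arrays (± SD, n = 7). On the log2 scale the difference between dCINs and MNs was 1.34 with an SE of 0.23, or 2.53-fold.

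Hcrtr2 had 107 at the lowest, 134 at the median and 213 at the highest dCIN array. The MN arrays had 9.14, 16.0 and 77.1. All 7 dCIN arrays lay above all 7 MN arrays, which was the case, in either direction, for 1.62% of the 1050 probe sets. The average was 154 ± 44.3 over dCIN arrays and 27.2 ± 24.7 over MN arrays (± SD, n = 7), a log2 difference of 2.85 with an SE of 0.40. The SD in MNs was nearly as large as the mean. It came from MN array 4 at 77.1 and MN array 3 at 43.2, while the other 5 MN arrays were between 9.14 and 16.1.

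**Figure D1:**
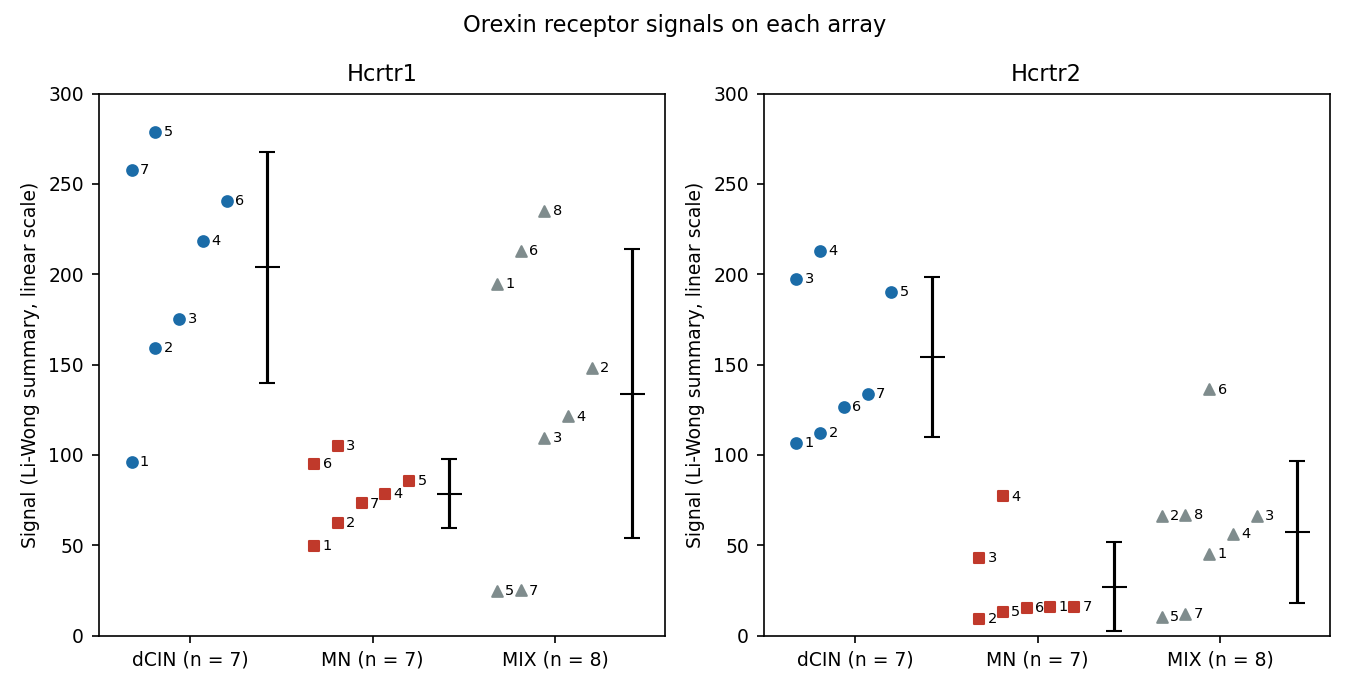
Signal of Hcrtr1 (left) and Hcrtr2 (right) on each array, as Li-Wong summaries on a linear scale. Each symbol is 1 array with its number, and the bar is the mean ± SD of the group. All dCIN arrays stand above the MN arrays for Hcrtr2, whereas dCIN array 1 (96.0) lies within the range of MNs for Hcrtr1, and MIX arrays 5 and 7 are lowest among MIX for both.

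Both receptors were thus among the 25 probe sets (2.38% of the 1050) that limma called higher in dCINs than in MNs at a Benjamini-Hochberg adjusted p under 0.1. The study chose its genes on these same arrays by an average rank over several tests, limma among them. The call therefore carries no further weight. The log2 difference between dCINs and MNs was 1.51 larger for Hcrtr2 than for Hcrtr1 (SE 0.42). With 32 added to each signal before the log2, which damps ratios of low signals, the excess was 0.65 (SE 0.24), and the difference of Hcrtr2 itself was 1.70 in place of 2.85. The size of the fold for Hcrtr2 therefore depended on how its low signals in MNs were treated. Its direction could not change, as all dCIN arrays lay above all MN arrays and the added constant kept their order.

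Among the labelled cells the receptors differed in their spread. The SD of the log2 signal was 0.53 in dCINs and 0.37 in MNs for Hcrtr1, and 0.41 in dCINs and 1.08 in MNs for Hcrtr2. The median SD over all probe sets was 0.26 in dCINs and 0.27 in MNs. Hcrtr2 was the more variable in MNs, where 29 of the 1050 probe sets had a larger SD. Its signal there was low, with a median of 16.0 where the MN arrays had medians of 44.3 to 50.8 over all probe sets. Ratios of low signals are enlarged by the processing, and the part of this in the spread was not tested. Over the 7 dCIN arrays Hcrtr2 went with Hcrtr1 at r = 0.515 (exact permutation p = 0.219, adjusted p = 0.411) and rho = 0.464 (exact permutation p = 0.302, adjusted p = 0.504). Without dCIN arrays 1 and 2, the farthest from the median of Hcrtr1, r was -0.413. Over the 7 MN arrays r was 0.387 (exact permutation p = 0.393, adjusted p = 0.578) and rho 0.25 (exact permutation p = 0.595, adjusted p = 0.637), and without arrays 1 and 3 r was 0.21. Tests were two-sided, and the adjustment was made over the 15 relations tested within groups. No covariation of the receptors within dCINs or within MNs was thus detectable with 7 arrays.

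The arrays numbered 1 and 2 had the lowest signals of Hcrtr1 in both labelled groups, and of Hcrtr2 in dCINs. For Hcrtr1 they had 96.0 and 159 in dCINs, where arrays 3 to 7 had 175 to 279. The MN arrays 1 and 2 had 49.6 and 62.2, where arrays 3 to 7 had 73.2 to 105. Hcrtr2 had 107 and 112 on dCIN arrays 1 and 2, against 127 to 213 on arrays 3 to 7, while MN arrays 1 and 2, at 16.0 and 9.14, did not stand apart from MN arrays 5 to 7. The labels do not say what the numbers stand for. Within arrays 3 to 7, Hcrtr1 averaged 234 in dCINs and 87.6 in MNs, and Hcrtr2 172 in dCINs and 33.0 in MNs (n = 5 arrays each). On arrays 1 and 2, Hcrtr1 averaged 128 in dCINs and 55.9 in MNs, and Hcrtr2 109 in dCINs and 12.6 in MNs (n = 2 each).

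The number of cells in the pool was set against the receptors within each group. MN samples 1 and 2, of about 250 and 230 cells, had the lowest Hcrtr1 signals, and over the 7 MN arrays r was -0.85 (exact permutation p = 0.0317, adjusted p = 0.119) and rho -0.643 (exact permutation p = 0.139, adjusted p = 0.298). Without these 2 arrays r was -0.101 over 5 arrays, so the relation rested on them. With 1 MN array left out, the adjusted p for Hcrtr1 ran from 0.0417 (without array 7) to 0.315 (exact permutation tests). For Hcrtr2 in MNs r was -0.367 (exact permutation p = 0.483, adjusted p = 0.578). In dCINs r with the number of cells was 0.336 for Hcrtr1 (exact permutation p = 0.475, adjusted p = 0.578) and -0.0141 for Hcrtr2 (exact permutation p = 0.976, adjusted p = 0.976). In MIX r with the number of cells was 0.568 for Hcrtr1 (exact permutation p = 0.0679, adjusted p = 0.186) and 0.237 for Hcrtr2 (exact permutation p = 0.64, adjusted p = 0.686) over 8 arrays, so its sign for Hcrtr1 was opposite to that in MNs. Over the 6 MIX arrays other than 5 and 7 it was 0.418 for Hcrtr1 (exact permutation p = 0.422, adjusted p = 0.933) and -0.703 for Hcrtr2 (exact permutation p = 0.1, adjusted p = 0.9). When cell number was added to the fit, the log2 difference between dCINs and MNs was 1.15 for Hcrtr1 and 2.57 for Hcrtr2. Without the MN samples of over 200 cells it was 1.16 for Hcrtr1 and 2.54 for Hcrtr2.

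The MIX arrays were not used to choose the receptors, and they split into a pair with very low signals and a group of 6. MIX arrays 5 and 7 had 24.9 and 25.1 for Hcrtr1, below every dCIN and every MN array. For Hcrtr2 the same arrays had 10.3 and 12.2, within the range of the MNs. The other 6 MIX arrays had 109 to 235 for Hcrtr1, all above the MN maximum of 105, and 45.2 to 136 for Hcrtr2. For Hcrtr2, 5 of these 6 were below the dCIN minimum of 107, and array 6 at 136 was within the range of dCINs.

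Over all 8 MIX arrays the mean was 134 ± 80.1 for Hcrtr1 and 57.4 ± 39.4 for Hcrtr2 (SD). The log2 difference between dCINs and MIX was 0.92 (SE 0.42) for Hcrtr1 and 1.78 (SE 0.49) for Hcrtr2, from limma over all 22 arrays. Between MNs and MIX it was -0.42 (SE 0.42) for Hcrtr1 and -1.07 (SE 0.49) for Hcrtr2. Neither receptor separated MIX from dCINs or from MNs without overlap, as 0.19% of all probe sets did in each of these comparisons. These contrasts share the dCIN and MN arrays by which the receptors had been chosen, and are descriptions. Without MIX arrays 5 and 7, a choice made after the data were seen, Hcrtr1 differed by 0.24 between dCINs and MIX and by -1.10 between MNs and MIX. For Hcrtr2 the values were then 1.12 between dCINs and MIX and -1.72 between MNs and MIX. With the offset of 32 over all arrays Hcrtr2 differed by 1.15 between dCINs and MIX and by -0.56 between MNs and MIX. With array weights Hcrtr1 differed by 0.48 between dCINs and MIX and by -0.73 between MNs and MIX. Over the 6 arrays Hcrtr1 averaged 170 ± 51.4 and Hcrtr2 72.8 ± 32.2 (SD), so that Hcrtr1 in MIX was near its level in dCINs while Hcrtr2 stood between dCINs and MNs.

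Placed in log2 between MNs (their mean at 0) and dCINs (their mean at 1), the 8 MIX arrays ran from -1.21 to 1.21 for Hcrtr1 and from -0.353 to 0.955 for Hcrtr2. Hcrtr1 had 3 MIX arrays above the dCIN mean, 3 between the means and 2 below the MN mean. Hcrtr2 had none above the dCIN mean, 6 between and 2 below. Both receptors were among the most variable probe sets of the MIX arrays, with SDs of the log2 signal of 1.31 for Hcrtr1 and 1.29 for Hcrtr2 where the median probe set had 0.25. Only 6 of the 1050 probe sets had a larger SD than Hcrtr1 and 9 a larger one than Hcrtr2. Without arrays 5 and 7 the SDs were 0.45 for Hcrtr1 and 0.54 for Hcrtr2, and 102 and 72 probe sets had larger ones. On arrays 5 and 7 both receptors were below the medians of the MIX arrays over all probe sets, 45.0 to 48.2.

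**Figure D2:**
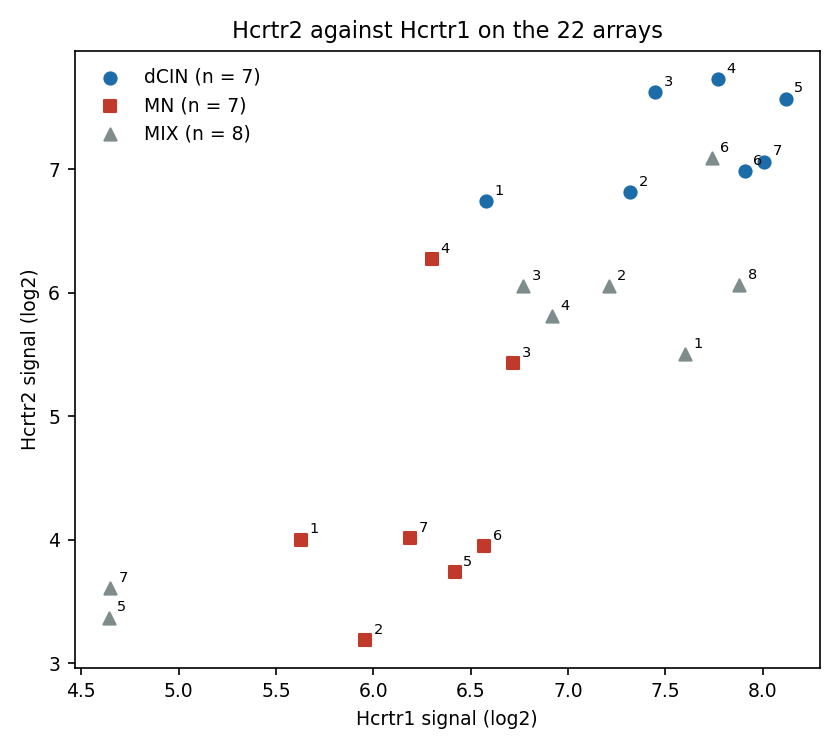
Log2 signal of Hcrtr2 (vertical) against Hcrtr1 (horizontal) on the 22 arrays, each symbol 1 array with its number. The dCIN arrays lie at the upper right and MN arrays lower, and MIX arrays 5 and 7 (24.9 and 25.1 for Hcrtr1, 10.3 and 12.2 for Hcrtr2 on the linear scale) lie apart from the other 6 MIX arrays.

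Over all 8 MIX arrays Hcrtr2 went with Hcrtr1 at r = 0.925 (exact permutation p = 0.0233, adjusted p = 0.119) and rho = 0.81 (exact permutation p = 0.0218, adjusted p = 0.163). Because MIX fell into clusters, the relations were also computed over the 6 arrays other than 5 and 7, a choice made after the signals were seen. There r was 0.303 (exact permutation p = 0.653, adjusted p = 0.933 over the 9 MIX relations) and rho = 0.543 (exact permutation p = 0.297, adjusted p = 0.775). The position of a MIX array was also taken over the 38 other probe sets called between dCINs and MNs, with 0 at the MN mean and 1 at the dCIN mean. On this axis MIX array 5 stood at 0.151 and MIX array 7 at 0.196, the nearest to MNs, and the other 6 ran from 0.396 to 0.782. So the arrays with the lowest signals of both receptors were also nearest to MNs over other genes. Over all 8 arrays r of the position was 0.782 with Hcrtr1 (exact permutation p = 0.0313, adjusted p = 0.119) and 0.855 with Hcrtr2 (exact permutation p = 0.0119, adjusted p = 0.119). The rho was 0.619 for Hcrtr1 (exact permutation p = 0.115, adjusted p = 0.298) and 0.81 for Hcrtr2 (exact permutation p = 0.0218, adjusted p = 0.163). Without arrays 3 and 5, the farthest from the median position, r was 0.861 for each receptor. With 1 MIX array left out, the adjusted p for Hcrtr2 ran from 0.0298 (without array 6) to 0.393 (exact permutation tests). Among the 6 arrays other than 5 and 7 r of the position was 0.0782 with Hcrtr1 (exact permutation p = 0.881, adjusted p = 0.933) and 0.487 with Hcrtr2 (exact permutation p = 0.367, adjusted p = 0.933). The corresponding rho was 0.0857 for Hcrtr1 (exact permutation p = 0.919, adjusted p = 0.919) and 0.543 for Hcrtr2 (exact permutation p = 0.297, adjusted p = 0.775).

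**Figure D3:**
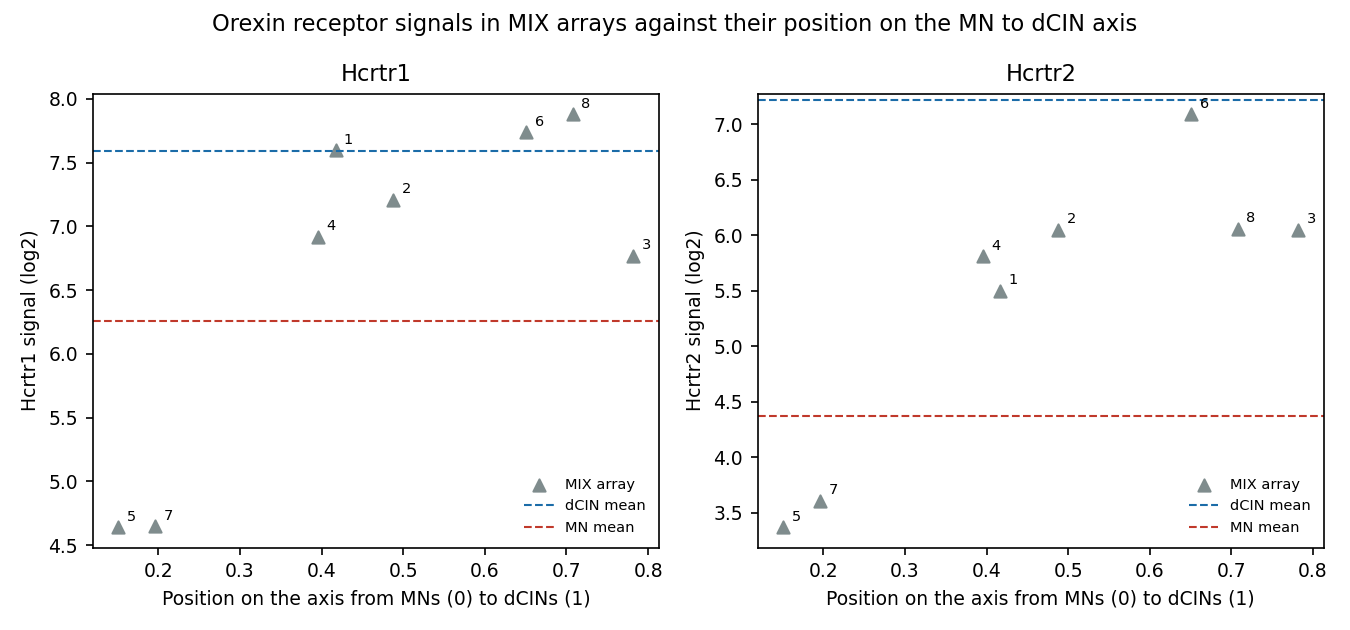
Log2 signal of Hcrtr1 (left) and Hcrtr2 (right) in the 8 MIX arrays against their position on the axis from MNs (0) to dCINs (1) over 38 other probe sets. Dashed lines are the dCIN and MN means of the receptor. Arrays 5 and 7 (positions 0.151 and 0.196) lie below the MN mean for both receptors, and for Hcrtr2 no array passes the dCIN mean.

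Slc32a1, the vesicular transporter of GABA and glycine, and Slc18a3, that of acetylcholine, mark inhibitory and motor neurons. In MIX arrays 5 and 7 Slc32a1 had 187 and 328, the lowest of the MIX arrays, whose other signals were 362 to 580. Slc18a3 had 2651 and 2970 on arrays 5 and 7, inside the MIX range of 1672 to 3801. Among MNs, array 3 had the highest Slc32a1, 366 where the others had 35.2 to 149, and also the highest Hcrtr1 and the second highest Hcrtr2. MN array 4, with the highest Hcrtr2, had 113 for Slc32a1. Over all 8 MIX arrays r of Slc32a1 was 0.69 with Hcrtr1 (exact permutation p = 0.088, adjusted p = 0.189) and 0.702 with Hcrtr2 (exact permutation p = 0.0744, adjusted p = 0.186). With 1 MIX array left out, r of Slc32a1 with Hcrtr2 ran from 0.396 to 0.849. The adjusted p ran from 0.0298 (without array 6) to 0.589 (exact permutation tests). Over the 6 MIX arrays other than 5 and 7 r of Slc32a1 was -0.139 with Hcrtr1 (exact permutation p = 0.753, adjusted p = 0.933) and -0.0771 with Hcrtr2 (exact permutation p = 0.928, adjusted p = 0.933).

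Listed cell type markers were checked beside the receptors, each gene by its brightest probe set. The 3 measured motor neuron markers (Slc18a3, Calcb and Nefh) were all called higher in MNs, and their summed signal was 851 to 2513 in dCINs and 6603 to 8859 in MNs. The 5 measured of 9 astrocyte markers summed to 5245 to 8086 in dCINs, 3295 to 5783 in MNs and 3334 to 8472 in MIX. Most of the sum was Apoe, which averaged 6027 over dCIN arrays and 3768 over MN arrays. S100b averaged 1103 over dCIN arrays and 771 over MN arrays, and Slc1a2, Slc1a3 and Gja1 were far lower. Only Apoe was called, and the study described all its differing genes, Apoe among them, as neuron related. The part of these markers in the receptor signals was not tested. Gfap, a defining astrocyte marker, was not analysed here. The lowest astrocyte sum of MIX, 3334, was that of array 7, and array 5 had 4646. The 4 oligodendrocyte markers summed to 360 to 560 in dCINs and 355 to 617 in MNs, with none called. A single microglial and a single Schwann cell marker were measured and not called. No marker of glutamate neurons or vessels was analysed here.

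The precursor of the orexins, Hcrt, was not analysed here. Of molecules that orexin neurons release or carry beside the peptide, Pdyn, the precursor of dynorphin, averaged 60.2 ± 7.95 over dCIN arrays and 80.9 ± 33.6 over MN arrays (± SD, n = 7) and was not called. Nptx2 (Narp), a secreted pentraxin that clusters glutamate receptors, was not called at its brightest probe set (log2 difference 0.31, SE 0.30, adjusted p = 0.727 by limma). Its other probe set was called, at 361 ± 113 over dCIN arrays and 196 ± 62.6 over MN arrays (log2 difference 0.91, SE 0.25, adjusted p = 0.0659).

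Downstream of the receptors, 20 genes of G proteins, phospholipase C, protein kinase C and calcium signalling were measured of 72 listed. A single gene was called, Prkcb, the beta form of protein kinase C, which is activated by calcium and diacylglycerol. It averaged 953 ± 179 over dCIN arrays and 396 ± 178 over MN arrays (± SD, n = 7, log2 difference 1.38, SE 0.26, adjusted p = 0.00509 by limma). Another 2 probe sets for Prkcb were not called, at -0.08 and 0.31. The median difference of the 20 genes was 0.03, against -0.03 over all probe sets.

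Of 42 listed channels, exchangers and pumps of the families through which orexin receptors change excitability, 21 were measured. Atp2a2, the pump that returns calcium to the endoplasmic reticulum, was called higher in dCINs. It averaged 736 ± 126 over dCIN arrays and 447 ± 176 over MN arrays (± SD, n = 7, log2 difference 0.80, SE 0.22, adjusted p = 0.0768 by limma). Of 14 fits with an array left out, 10 lost this call, as did 5 of 11 other settings. With cell number in the fit the difference was 0.55 (adjusted p = 0.297), and without the MN samples of over 200 cells it was 0.53 (adjusted p = 0.191). Its other probe set differed by -0.05. No other gene of the list was called, and the median difference was -0.03.

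Among other receptors, 24 neuropeptide receptor genes were measured of 58 listed, and Sstr2, a somatostatin receptor that mostly inhibits, was called higher in dCINs (80.8 ± 24.0 over dCIN arrays and 48.8 ± 5.78 over MN arrays, ± SD, n = 7, log2 difference 0.69, SE 0.16, adjusted p = 0.0295 by limma). Without the MN samples of over 200 cells its adjusted p was 0.105. Of 28 amine and muscarinic receptor genes measured, Htr5b, a serotonin receptor coupled to G proteins, was called higher in dCINs (log2 difference 0.73, SE 0.13, adjusted p = 0.0037). Htr3a, a serotonin-gated channel, was called lower in dCINs (log2 difference -0.75, SE 0.16, adjusted p = 0.0153), as were 1.43% of all probe sets. The other probe set of Htr3a, with means of 43.8 in dCINs and 43.7 in MNs, was not called (log2 difference 0.0). Adra1d, the alpha-1D adrenoreceptor, was not called at its brightest probe set, while another was called lower in dCINs (log2 difference -1.46, SE 0.27, adjusted p = 0.00509). The medians were -0.09 for neuropeptide receptors and -0.06 for amine and muscarinic receptors. The differences of both orexin receptors lay above those of all 52 other receptor genes measured in these lists, by their brightest probe sets. The lists held no glutamate, GABA or cannabinoid receptors. Gabbr2, a subunit of the metabotropic GABA receptor, differed by 1.44 at AF058795_at, above Hcrtr1. At AF074482_s_at and AF109405_s_at it differed by -0.07 and 0.005. In the study's own ranking the glutamate receptor gene Mgr1 and the cannabinoid receptor gene Cnr1 also had larger ratios than Hcrtr1. By size of the difference in either direction over all probe sets, Hcrtr2 ranked 2 and Hcrtr1 20. The orexin receptors had been picked for a large difference, so their order among the listed genes is a description.

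**Figure D4:**
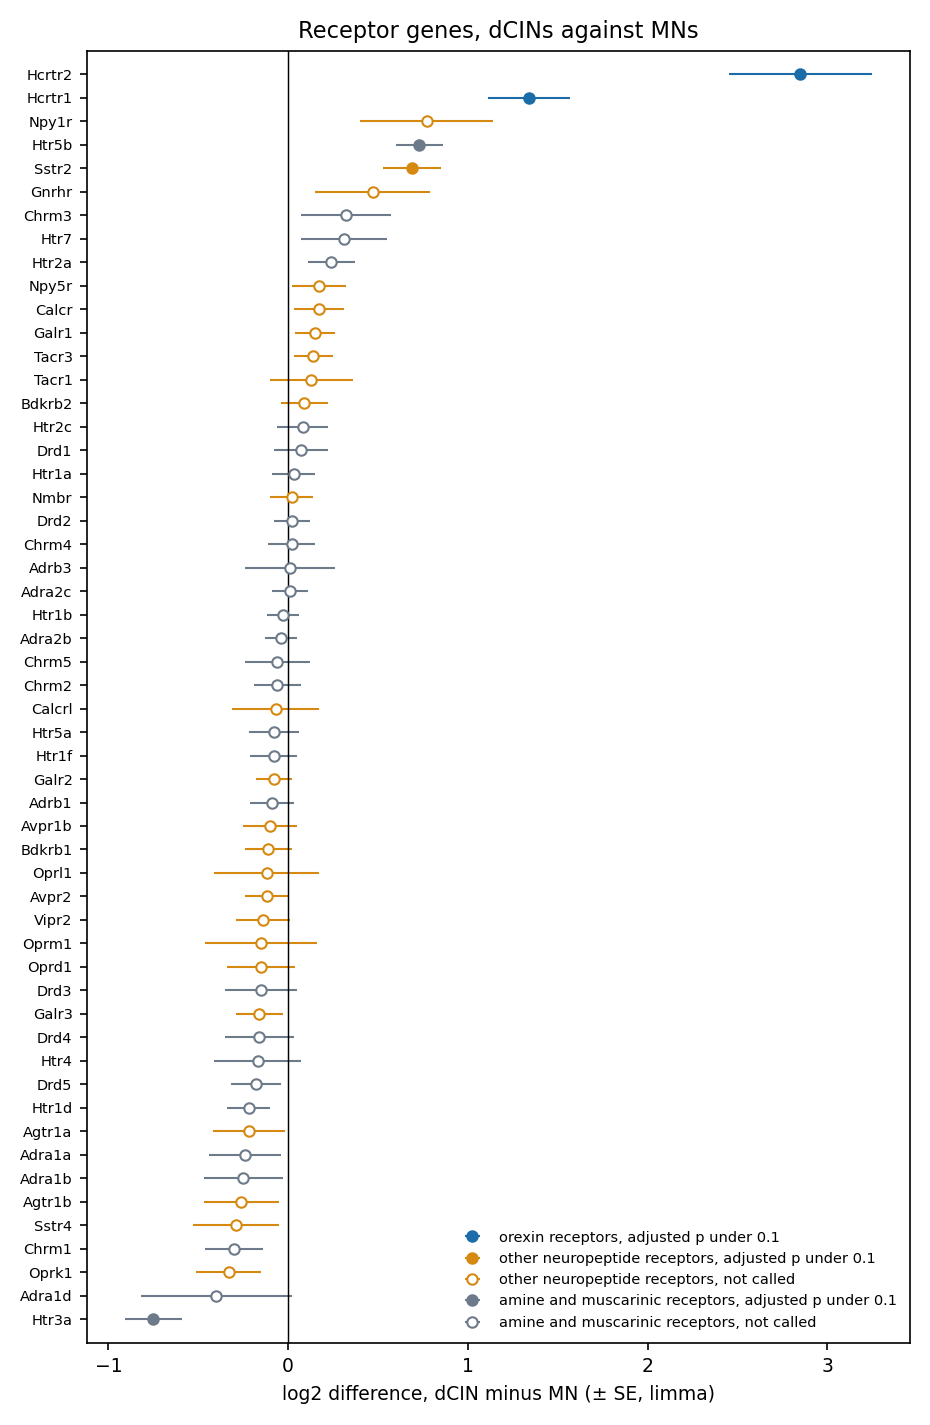
Log2 difference between dCINs and MNs (± SE, limma, n = 7 arrays each) of the orexin receptors and of 24 other neuropeptide and 28 amine and muscarinic receptor genes, each by its brightest probe set. Filled symbols had an adjusted p under 0.1. Hcrtr2 (2.85) and Hcrtr1 (1.34) stand at the top of the plotted genes, and the highest of the others is at 0.77. Glutamate, GABA and cannabinoid receptors are not plotted.

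Over these lists 5 of 95 distinct genes, 5.26%, were called between dCINs and MNs, and over all 1050 probe sets 40, or 3.81%. The 5 called genes had also been chosen by the study on these arrays and are no independent evidence. Between dCINs and MIX 0.476% of all probe sets were called and between MNs and MIX 0.952%, and none of the 95 list genes was called by limma in either. At an unadjusted p under 0.05, 8 of the 95 passed between dCINs and MNs (10.9% of all probe sets), 6 between dCINs and MIX (7.14%) and 10 between MNs and MIX (11.8%).

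The probe sets most like the receptors in their course over the 22 arrays were described by Pearson's r of the log2 signals. For Hcrtr2 these were Gabbr2, a subunit of the metabotropic GABA receptor (r = 0.908), Atp2a2 (0.874) and Thra, a nuclear thyroid hormone receptor (0.869). For Hcrtr1 they were Atp2a2 (0.826), the other probe set of Nptx2 (0.813) and Gria2, an AMPA receptor subunit (0.806). The receptors themselves had an r of 0.822, and only 1 probe set was more like Hcrtr1 and 5 more like Hcrtr2. All points share the difference between dCINs and MNs and the normalization over 22 arrays.

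After the mean of each group was taken away, r between the receptors was 0.743, with 2 probe sets more like Hcrtr1 and 5 more like Hcrtr2. On linear signals it was 0.563, with 18 and 21 probe sets more alike. MIX arrays 5 and 7, low for both receptors, enter this value. The deviations of Hcrtr2 then went most with Atp2a2 (0.829), Gabbr2 (0.801) and Nptx2 (0.77), and those of Hcrtr1 with Grik2, a kainate receptor subunit (0.805), Atp2a2 (0.744) and Cacnb3, a calcium channel beta subunit (0.74). For all of these the 2 lowest MIX signals were on arrays 5 and 7. Gabbr2 had 109 and 140 there, where MIX reached 419, and Atp2a2 had 281 and 259, where MIX reached 738. Grik2 had 21.6 and 25.4, with a MIX maximum of 160. On linear signals 4 of the 12 places in these lists were taken by the same probe sets.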

How the data were processed

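Amplified RNA from laser microdissected cells was hybridized to Affymetrix RN_U34 arrays, 7 of dCINs, 7 of MNs and 8 of MIX, each from 1 animal. The deposited table holds linear intensities. The authors derived them from the PM probes by subtraction of the array minimum, a quantile linear transformation, quantile normalization over all arrays, Li-Wong summaries (affy) and subtraction of a universal minimum. The genome build and the version of affy were not given in the sources used here. Subtraction of the minimum enlarges ratios of low signals. Of the 1050 probe sets, 961 had 1 gene symbol, 7 several and 82 none in the platform annotation, where RefSeq names (GRCr8) were used to update symbols.

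Values were log2-transformed and fitted by lmFit and eBayes of limma 3.58.1 (R 4.3.3) over 14 arrays for dCINs against MNs and over 22 arrays for contrasts with MIX. A call meant a p under 0.1 after Benjamini-Hochberg adjustment over all probe sets. Correlations within groups had exact two-sided permutation tests (numpy 2.4.6, checked with scipy 1.17.1 in Python 3.11.15). With 8 arrays the smallest possible p was 4.96e-05. Code was tested on simulated data. Replicates were separate animals, and their number limits the precision.

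The receptors, gene lists and tests were chosen with earlier results of these data known. The text names both receptors, the called genes of the 5 pathway lists, the 3 genes most like each receptor by each measure, Slc32a1 and Slc18a3, and, of markers, those that define a list or were called. Pdyn, Adra1d and the other probe set of Nptx2 were added after their values were seen. The alternatives were an offset of 32, a minimum mean log2 of 6, quantile normalization, median centring, array weights, a robust prior with an intensity trend, replicate number, cell number or array numbers 1 and 2 in the fit, all 22 arrays in 1 fit, and samples left out.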

Additional observations from a re-analysis of the deposited data

Results flagged for a closer look

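Hcrtr2 had a signal of 136 on MIX array 6, where the other 7 MIX arrays had at most 66.7, so on the linear scale this array stood far from the rest. On the log2 scale it had 7.09, with the next array at 6.06 and the lowest at 3.37, and stood less far apart. Slc32a1 had 366 on MN array 3, where the other 6 MN arrays had at most 149. The rule was applied to linear signals. Such a distance is met by chance in about 1 in 20 groups only if the values are normally distributed, which was not checked. In all, 12 groups of 4 genes were looked at.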

How the results depend on the processing

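The log2 differences of both receptors kept their direction in every contrast and under every alternative that gave a value. Between dCINs and MNs this carries no weight, as the receptors were chosen for that difference. With a minimum mean log2 of 6, Hcrtr2 was left out and has no value. When 1 array was left out, the differences between dCINs and MNs ran 1.24 to 1.51 for Hcrtr1 and 2.65 to 3.16 for Hcrtr2. An offset of 32 gave Hcrtr2 1.70. Between dCINs and MIX, leaving out 1 array gave 0.63 to 1.09 for Hcrtr1 and 1.48 to 2.01 for Hcrtr2. Between MNs and MIX it gave -0.71 to -0.25 for Hcrtr1 and -1.39 to -0.84 for Hcrtr2. The extremes for Hcrtr1 were without MIX array 5 or 7 and without MIX array 8. The value of 1.09 was also reached without dCIN array 1. Over the other settings Hcrtr1 ran from 0.24 to 1.09 and Hcrtr2 from 1.12 to 1.86 between dCINs and MIX, and Hcrtr1 from -1.10 to -0.24 and Hcrtr2 from -1.72 to -0.56 between MNs and MIX. The count of called probe sets, 40 between dCINs and MNs, was 76 with array weights and 83 with array numbers 1 and 2 as a covariate, and 31 to 55 with 1 array left out. Of the list genes, 5 were called, 8 with array weights or array numbers as a covariate, 3 with the minimum mean of 6 or without the MN samples of over 200 cells, and 4 to 5 with 1 array left out. With the minimum mean of 6, Htr5b and Sstr2 were left out before the fit, and the other called list genes kept their call. Between dCINs and MIX, 5 probe sets were called, 2 with quantile normalization or with the trend and robust prior, 65 with the number of cells, 1 without MIX arrays 5 and 7, and 1 to 8 with 1 array left out. Between MNs and MIX, 10 were called, 3 with quantile normalization, 33 with array weights, 2 without the MN samples of over 200 cells, and 2 to 14 with 1 array left out. None of the 15 correlations had an adjusted p under 0.05 and 4 had an unadjusted one, those of Hcrtr1 with cells in MNs and, over 8 MIX arrays, of the receptors with each other and of each with the position between MNs and dCINs. With 1 array left out, 0 to 2 had an adjusted one. Of the 12 places among the most alike genes, 4 were kept on linear signals. Same-numbered arrays came from separate animals and were not taken as pairs. Their deviations from the group means had r of -0.192 to 0.532 between dCINs and MNs. Differently numbered arrays were not compared, so these values cannot tell whether equal numbers share a batch. The replicate block gave 55, 7 and 9 called probe sets for the 3 contrasts. The causes were not tested.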
